A study of Homo sapiens with 18 samples.

Results

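The 9 genes described here are AC019349.5, RP11-706C16.8, SERPINB11, RP11-770G2.5, CTC-518B2.12, CTB-147C22.9, CTB-147C22.8, AC129492.6 and FGFBP1, out of 57773 in the count table. They were chosen by name, and 8 of them share exons with a gene of squamous epithelium on the other DNA strand, while FGFBP1 has no such neighbour. The choice was made with the tamoxifen response of the repressive line already known, so all values of the 9 genes in that line are given as a description, with no test. The same holds for RP11-706C16.8 in the activating line, where its lower level with tamoxifen was also known. RNA-seq was done in RWPE1, an established benign human prostate epithelial line grown in serum-free keratinocyte medium with epidermal growth factor and bovine pituitary extract. Cells carried 1 of 3 MACC constructs in the lentiviral vector pLenti PGK Blast, in which the ERT2 hormone-binding domain is fused to a DNA-binding domain. The neutral construct (3X) adds only a FLAG tag, the repressive construct adds the KRAB domain and the activating construct adds VP64. All 18 libraries therefore come from cells that carry a construct and were kept under blasticidin as stably selected lines, 1 line for each construct. Treatment lasted 48 h, with tamoxifen or with ethanol as vehicle, and every group held 3 biological replicates. The dose of tamoxifen stands as 1.5 uM in one field of the labels and as 1.25 uM in another, and which applies could not be settled.

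Stratified squamous epithelia pass from a basal layer to flattened, protective upper layers, and each step has its own keratins, surface proteins, proteases and protease inhibitors. KRT13 is a keratin of the upper layers of non-cornified squamous epithelium, LY6D is a membrane-anchored surface protein of keratinocytes, and SERPINB3 is an intracellular inhibitor of proteases known as squamous cell carcinoma antigen. OVOL1 is a zinc finger transcription factor of epithelial differentiation, KLK6 and KLK10 are secreted kallikrein-related peptidases, and ALOX12B is a lipoxygenase needed for the skin's lipid barrier. FGFBP1 is a secreted carrier that releases fibroblast growth factors from the matrix. RWPE1 cells have basal epithelial features, and a prostate epithelium can take on squamous traits.

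The genes on the other strand overlap the members to different degrees (GRCh37, GENCODE annotation). AC019349.5 (ENSG00000229732), a lncRNA at chr17:39657235-39658661 on the plus strand, lies wholly within KRT13, with 476 of its 476 exonic bases on KRT13 exons and 95 of them on KRT13 coding sequence. RP11-706C16.8 (ENSG00000253715), a lncRNA at chr8:143866790-143893536 on the plus strand, shares 216 of 602 exonic bases with LY6D, 175 of them coding. SERPINB11 (ENSG00000206072), at chr18:61314813-61393666 on the plus strand, is itself a protein-coding gene of the serpin family, and 620 of its 3694 exonic bases lie opposite SERPINB3, 317 of them coding in SERPINB3. The lncRNA RP11-770G2.5 (ENSG00000255404, chr11:65563417-65564690, minus strand) has 1039 of 1044 exonic bases opposite OVOL1, none of them coding. Within the kallikrein cluster, CTC-518B2.12 (ENSG00000268739, chr19:51517630-51517990, plus strand) has all 240 exonic bases opposite the KLK10 gene outside its coding sequence. CTB-147C22.8 (ENSG00000269495, chr19:51453441-51466905, plus strand) has 401 of 959 exonic bases opposite KLK6, 228 of them coding, and a further 202 opposite KLK5, another peptidase of the cluster. CTB-147C22.9 (ENSG00000267879, chr19:51471449-51515385, plus strand) shares only 4 of 3266 exonic bases with KLK6. AC129492.6 (ENSG00000214999, chr17:7982800-7984883, plus strand) has 736 of 1804 exonic bases opposite ALOX12B, 582 of them coding. FGFBP1 (ENSG00000137440) lies at chr4:15937200-15940363 on the minus strand and spans 1351 exonic bases.

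**Figure D1:**
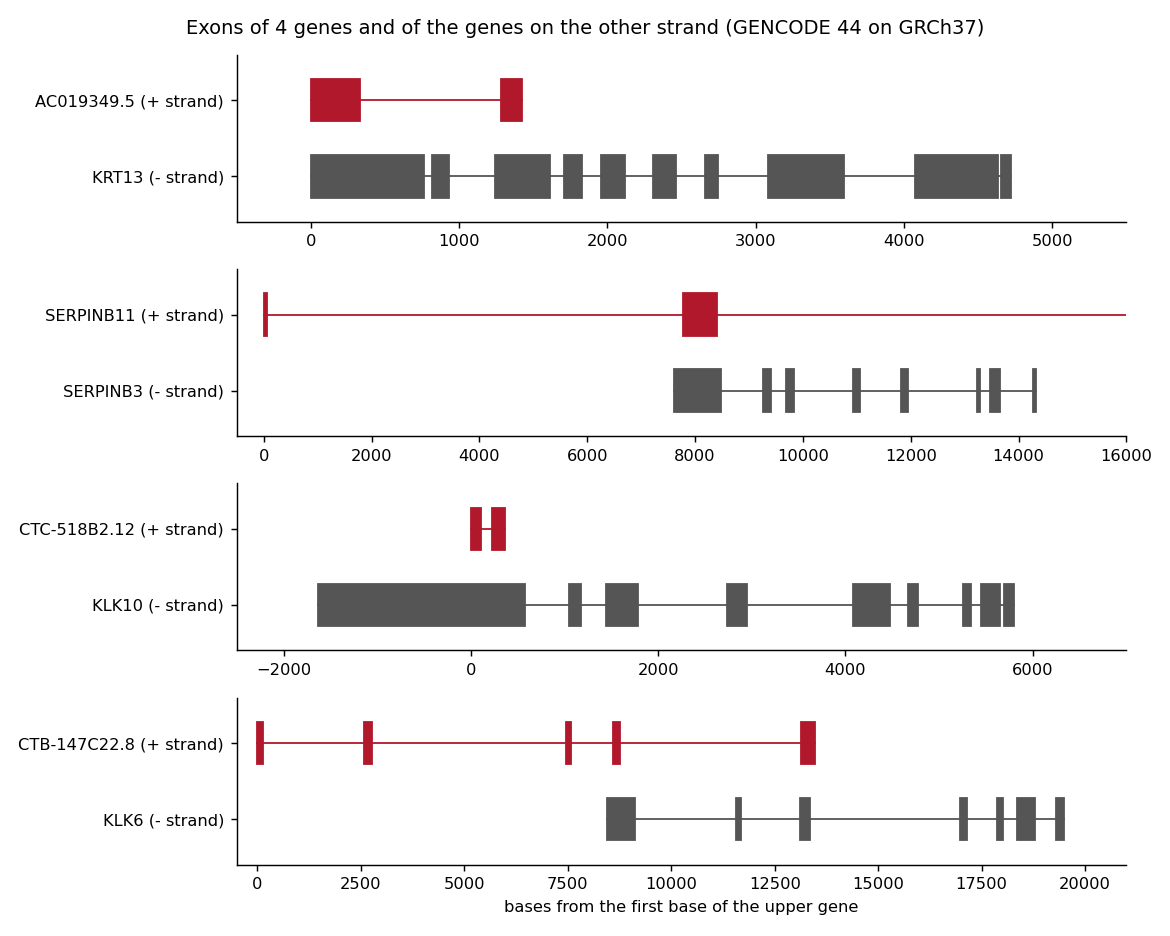
Exon maps of 4 of the 9 genes (red) and of the gene on the other strand (grey), drawn to scale from the GENCODE annotation on GRCh37. The horizontal axis counts bases from the first base of the upper gene, boxes are exons and lines are introns, and the far exons of SERPINB11 run beyond the right edge. All exonic bases of AC019349.5 and of CTC-518B2.12 lie on exons of KRT13 and KLK10, while SERPINB11 touches SERPINB3 with 1 exon.

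The shared stretches that are coding in the gene on the other strand are printed for AC019349.5, SERPINB11 and CTB-147C22.8. Between both genes of a pair, a single read that lies wholly within these bases can be assigned only by its strand. Sequences run 5′ to 3′ on the plus strand of GRCh37, which is the strand of the named lncRNA or of SERPINB11, in lower case. For the longer KRT13 stretch the same bases are also given as KRT13 reads them. The first KRT13 stretch (chr17:39657511-39657568) ends the upstream exon of AC019349.5, and the last pair of sequences shows the ends of the intron that follows (chr17:39657569-39658519), with its outermost bases in capitals.
AC019349.5, 58 bases opposite KRT13: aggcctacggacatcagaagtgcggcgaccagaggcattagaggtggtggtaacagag
KRT13 strand of the same 58 bases: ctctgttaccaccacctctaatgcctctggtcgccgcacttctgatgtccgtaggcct
AC019349.5, 37 bases opposite KRT13 at chr17:39658625-39658661: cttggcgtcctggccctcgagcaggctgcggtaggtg
SERPINB11, 300 bases opposite SERPINB3 at chr18:61322894-61323193: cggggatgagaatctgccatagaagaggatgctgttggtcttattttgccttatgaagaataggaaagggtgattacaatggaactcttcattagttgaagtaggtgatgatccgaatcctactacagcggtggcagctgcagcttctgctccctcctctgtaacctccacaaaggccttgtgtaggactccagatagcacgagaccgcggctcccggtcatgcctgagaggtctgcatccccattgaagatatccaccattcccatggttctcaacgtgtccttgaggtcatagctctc
CTB-147C22.8, 228 bases opposite KLK6 at chr19:51466578-51466805: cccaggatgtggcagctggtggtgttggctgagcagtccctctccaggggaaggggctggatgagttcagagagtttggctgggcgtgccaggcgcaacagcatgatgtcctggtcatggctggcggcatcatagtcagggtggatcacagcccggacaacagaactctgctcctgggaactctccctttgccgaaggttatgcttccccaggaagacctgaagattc
AC019349.5 intron, upstream end: gtggtaacagagGCactagaag
AC019349.5 intron, downstream end: agacagtgAGgggtctcctctc

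Of the 300 bases printed for SERPINB11 and SERPINB3, 278 (92.7%) are identical in SERPINB4, the near copy of SERPINB3, and whether reads were shared between these loci was not tested. The annotated introns of AC019349.5 and of CTC-518B2.12 begin with GC and end with AG on their own strand, whereas the introns of RP11-770G2.5, CTB-147C22.8, AC129492.6 and FGFBP1 run from GT to AG. No annotated intron of a member coincides with an intron of the gene on the other strand.

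Total counts ranged from 675609 to 792282 per library, and a count of 0 allows a level of up to 3.79 to 4.44 CPM (counts scaled to a common library total) at a floor of 3 counts, which covers counting error only. All 9 genes had a count in some library and 8 reached the minimum for testing, 10 counts in at least 3 libraries, as did 5816 genes in all. CTB-147C22.9 had 1 count, in replicate 3 of the repressive line with tamoxifen, and 0 in the other 17 libraries. All 8 basal epithelial markers on a marker list passed the minimum, with summed counts of 1411 to 2664 per library. Of 9 luminal prostate markers 3 passed, with sums of 547 to 1050, and KLK3 and KLK2, which define secretory luminal cells, were at 0 in every library. Sums of fibroblast markers lay between 0 and 13, of leukocyte markers between 0 and 3, of neuroendocrine markers between 0 and 4, and endothelial markers were at 0. All marker values are counts listed at the marker genes themselves, and how the strand setting of the counting bears on them was not tested. ZNF10, a source of KRAB domains, had 2 to 16 counts in each repressive library and 0 in the others, which tells the repressive line from the other two and not these from each other.

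In 7 of the 8 overlapping pairs most counts were listed at the member and not at the squamous gene itself, and CTB-147C22.9 had 1 count beside 3 at KLK6. These members were named for lying opposite squamous genes, and the share over all overlapping pairs is not given here. Whether this split is particular to these loci was not tested. Over the 18 libraries AC019349.5 held 5208 counts and KRT13 held 106, so that 98.0% of the counts of the pair were at the lncRNA. RP11-706C16.8 held 1514 counts against 426 at LY6D (78.0%), and SERPINB11 held 2598 against 1 at SERPINB3. RP11-770G2.5 had 2285 counts beside 36 at OVOL1 (98.4%) and CTC-518B2.12 had 358 beside 72 at KLK10 (83.3%). CTB-147C22.8 had 552 beside 3 at KLK6, and AC129492.6 had 222 beside 27 at ALOX12B (89.2%). The libraries were made with a stranded kit, but the strand setting of the counting is not given in the sources used here, so which strand the reads came from was not tested. Each value below is that of the gene the count table names.

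**Figure D2:**
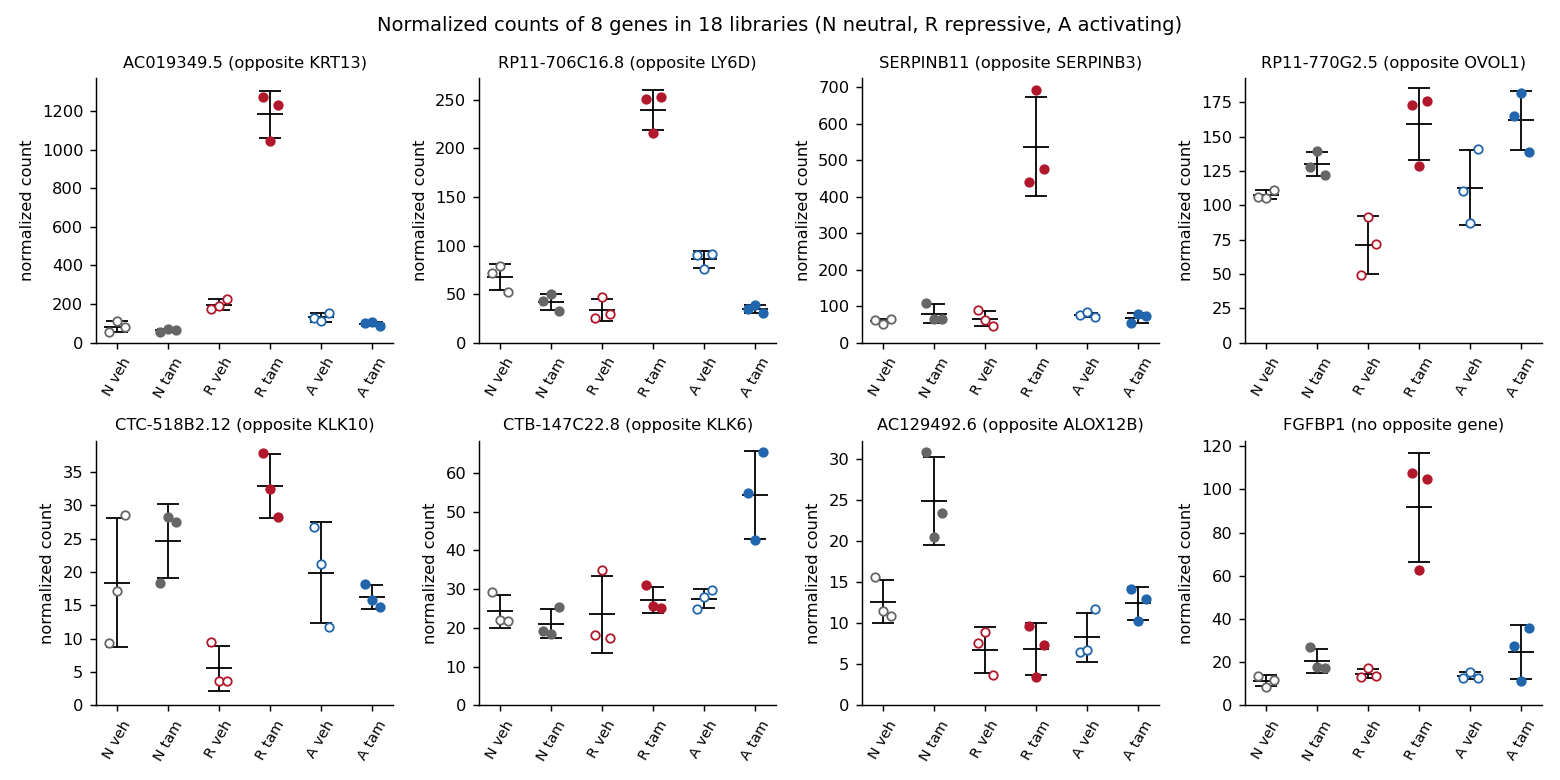
Normalized counts (vertical axes, each from 0) of the 8 tested genes in the 18 libraries, by line (N neutral, R repressive, A activating) and treatment (veh vehicle, tam tamoxifen). Circles are libraries, horizontal bars the mean and whiskers the SD (n = 3). In AC019349.5, RP11-706C16.8, SERPINB11 and FGFBP1 the 3 libraries of the repressive line with tamoxifen lie above all 15 others.

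AC019349.5, opposite KRT13, was the most abundant member in the repressive line with tamoxifen. Normalized counts, that is, counts divided by the library's size factor, were 173, 188 and 227 in the 3 repressive libraries with vehicle and 1273, 1043 and 1233 with tamoxifen. All 3 tamoxifen libraries lay far above the vehicle libraries, with means of 1183 ± 123 (SD, n = 3) against 196 ± 27.96, a log2 fold change of 2.60 (SE 0.15), or 6.04-fold. In the neutral line the values were 57.2, 114 and 78.8 with vehicle and 56.8, 69.2 and 66.1 with tamoxifen. In the activating line they were 126, 111 and 155 with vehicle and 103, 106 and 86.6 with tamoxifen. The groups of the neutral line overlapped, while in the activating line every tamoxifen library was below every vehicle library. KRT13 itself went the same way in the repressive line, with 7, 1 and 1 counts with vehicle and 30, 26 and 26 with tamoxifen, and it had at most 4 counts in each of the other 12 libraries. The share of the pair's counts at AC019349.5 was 98.6% with vehicle and 97.6% with tamoxifen in that line.

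RP11-706C16.8, opposite LY6D, lay below its vehicle values with tamoxifen in the neutral and activating lines and above them in the repressive line. In the repressive line it had 25.6, 46.7 and 29.4 normalized counts with vehicle and 250.4, 216 and 253 with tamoxifen. The group means were 33.9 ± 11.2 and 239.6 ± 20.6 (SD, n = 3), a log2 fold change of 2.82 (SE 0.24). In the activating line the values were 90.2, 75.3 and 91.4 with vehicle and 34.5, 39.1 and 30.4 with tamoxifen, a log2 fold change of -1.31 (SE 0.25) with no overlap between the groups. In the neutral line they were 71.8, 78.4 and 52.2 with vehicle and 43.4, 49.7 and 32.6 with tamoxifen, again without overlap. LY6D itself had 8.54, 4.49 and 8.27 normalized counts with vehicle and 83.5, 55.7 and 54.5 with tamoxifen in the repressive line, a log2 fold change of 3.19 (SE 0.46). In the other lines the vehicle and tamoxifen values of LY6D overlapped, at 7.79 to 20.8 in the neutral and 10.1 to 28.1 in the activating line. The share of the pair's counts at RP11-706C16.8 lay between 77.6% and 82.8% in 5 groups and was 67.7% in the activating line with tamoxifen.

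**Figure D3:**
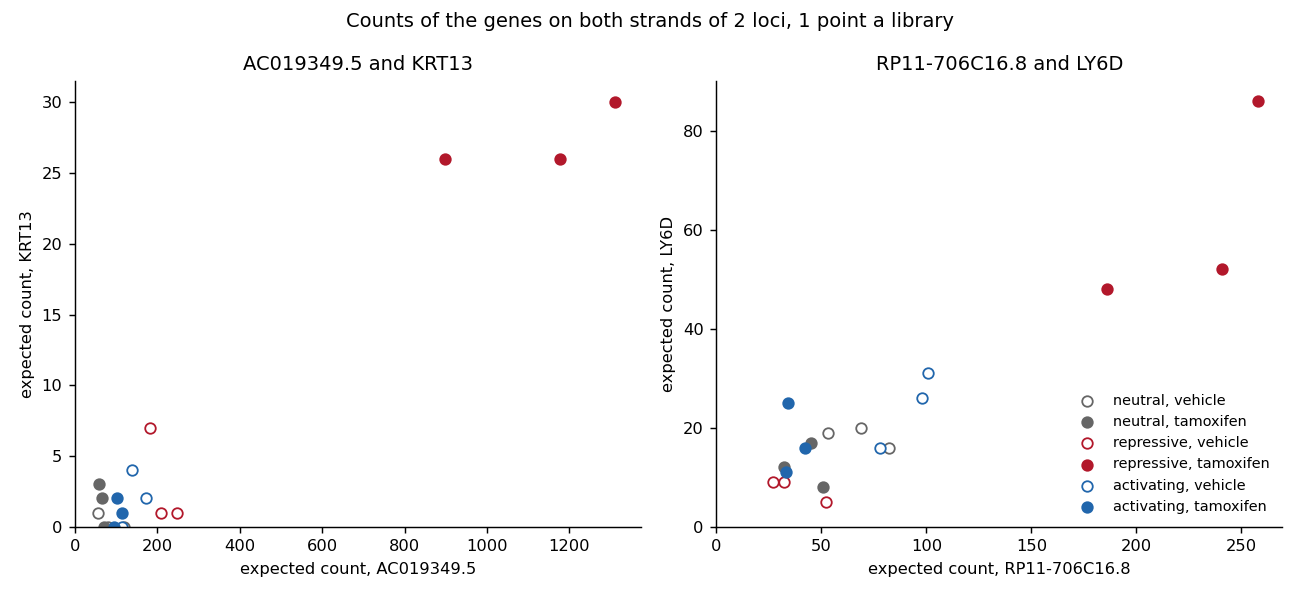
Expected counts, not normalized, of the gene on the plus strand (horizontal axis) and of the gene on the minus strand (vertical axis) for the KRT13 and the LY6D locus, 1 point per library, coloured by line and filled for tamoxifen. The 3 libraries of the repressive line with tamoxifen are highest on both axes in both panels, and the KRT13 axis ends near 30 counts where AC019349.5 reaches 1312.

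SERPINB11, opposite SERPINB3, differed little between the other groups and was high in the repressive line with tamoxifen. There it reached 441, 692 and 477 normalized counts, against 89.2, 62.9 and 45.9 with vehicle. The means were 536 ± 136 and 66.0 ± 21.8 (SD, n = 3), and the log2 fold change of 3.02 (SE 0.23), or 8.13-fold, was the largest among the 8 tested members. With vehicle and tamoxifen it had 51.6 to 64.0 and 64.1 to 109.8 in the neutral line and 69.7 to 83.0 and 52.7 to 77.2 in the activating line. SERPINB3 itself held 1 count in the neutral line with tamoxifen and 0 in the other 17 libraries.

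FGFBP1 was the member with no overlapping gene on the other strand. How far its level depends on the strand setting of the counting was not tested. Its normalized counts in the repressive line were 13.3, 17.1 and 13.8 with vehicle and 107.7, 62.7 and 104.8 with tamoxifen, with means of 14.7 ± 2.05 and 91.7 ± 25.2 (SD, n = 3). The log2 fold change of 2.64 (SE 0.39), or 6.24-fold, was close to those of AC019349.5 and RP11-706C16.8. In the neutral line the values were 13.5, 8.61 and 11.8 with vehicle and 27.0, 17.5 and 17.3 with tamoxifen, which did not overlap. In the activating line they were 12.9, 15.4 and 12.7 with vehicle and 27.4, 11.2 and 35.9 with tamoxifen, with replicate 2 below all vehicle libraries.

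RP11-770G2.5, opposite the transcription factor gene OVOL1, had 49.4, 91.6 and 71.7 normalized counts in the repressive line with vehicle and 173, 129 and 176 with tamoxifen, a log2 fold change of 1.17 (SE 0.21). In contrast to the genes above, the activating line with tamoxifen was as high, at 165, 181 and 139, and its vehicle libraries had 110, 86.9 and 141. The neutral line went from 106, 105 and 111 with vehicle to 128, 139 and 122 with tamoxifen. The repressive line with vehicle was thus the lowest group, with each of its libraries below every other library outside the activating line with vehicle. OVOL1 itself had at most 9 counts in any library.

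Among the peptidase loci, CTC-518B2.12, opposite KLK10, had 10, 4 and 4 counts in the repressive line with vehicle and 39, 28 and 27 with tamoxifen. Its normalized means were 5.59 ± 3.38 and 32.9 ± 4.79 (SD, n = 3), a log2 fold change of 2.57 (SE 0.52). In the other 4 groups it lay between 9.37 and 28.6, which reaches into the range of the repressive line with tamoxifen. CTB-147C22.8, opposite KLK6, did not follow this pattern, with 18.04, 35.0 and 17.5 with vehicle and 31.1, 25.5 and 25.2 with tamoxifen in the repressive line (log2 fold change 0.21, SE 0.36). It was highest in the activating line with tamoxifen, at 54.7, 42.8 and 65.4, against 24.8, 27.998 and 29.9 with vehicle in that line and 17.5 to 35.0 over all 15 other libraries. KLK6 had 0 to 2 counts and KLK10 0 to 12 counts per library.

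AC129492.6, opposite the barrier lipoxygenase gene ALOX12B, was low throughout, with 3 to 32 counts per library. In the repressive line it had 7.60, 8.98 and 3.67 normalized counts with vehicle and 9.71, 3.48 and 7.34 with tamoxifen, a log2 fold change of 0.04 (SE 0.60). It was highest in the neutral line with tamoxifen, at 30.8, 20.5 and 23.4, against 15.6, 11.5 and 10.8 with vehicle, and the activating line had 6.44 to 14.2. Given as a description, its 95% interval in the repressive line was -1.14 to 1.22, where FGFBP1 had a log2 fold change of 2.64. Changes within that interval could not be told from none at this depth.

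Taken over the 8 tested genes, 6 had every tamoxifen library above every vehicle library in the repressive line. For comparison, 12.6% of all 5816 genes tested had such a gap, but this response was known when the genes were chosen, so nothing is read from the count. The median log2 fold change of the 8 was 2.58 and that of all genes -0.02. Leaving out any 1 of the 18 libraries kept the log2 fold change of AC019349.5 between 2.52 and 2.72, of RP11-706C16.8 between 2.66 and 3.12, of SERPINB11 between 2.80 and 3.30 and of FGFBP1 between 2.51 and 2.85. The ranges were 0.97 to 1.40 for RP11-770G2.5, 2.33 to 3.18 for CTC-518B2.12, 0.04 to 0.62 for CTB-147C22.8 and -0.30 to 0.34 for AC129492.6. The highest values of CTC-518B2.12 and CTB-147C22.8 were those without replicate 1 and without replicate 2 of the repressive line with vehicle. The difference from the tamoxifen effect in the neutral line, likewise a description, was 3.50 (SE 0.34) for RP11-706C16.8, 2.98 (SE 0.25) for AC019349.5, 2.59 (SE 0.33) for SERPINB11, 2.15 (SE 0.69) for CTC-518B2.12, 1.77 (SE 0.59) for FGFBP1 and 0.90 (SE 0.29) for RP11-770G2.5 in log2. Those of CTB-147C22.8 and AC129492.6 were 0.42 (SE 0.51) and -0.94 (SE 0.78). In bulk RNA, a larger share of cells with a transcript and more transcript per cell cannot be told apart.

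Beside these values, the summed counts of the 8 basal markers per library were 1546 to 2044 in the repressive line with vehicle and 1908 to 2664 with tamoxifen. In the neutral line they were 1411 to 1788 with vehicle and 1958 to 2271 with tamoxifen, without overlap. In the activating line they were 1658 to 2050 and 2021 to 2314, and the ranges overlapped there as in the repressive line. These sums are not divided by size factors. The sums of the 9 luminal markers were 863 to 1050 with vehicle and 791 to 868 with tamoxifen in the repressive line. They were 730 to 733 against 608 to 679 in the neutral and 760 to 804 against 547 to 675 in the activating line. The part of these marker genes in the members' values was not tested.

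**Figure D4:**
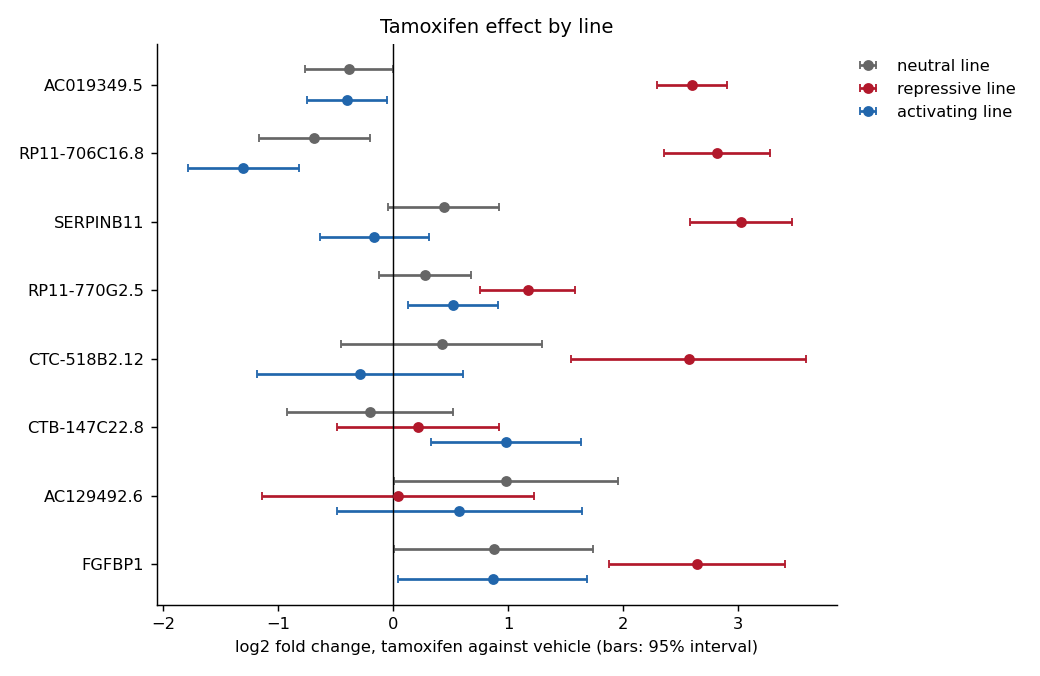
Log2 fold change of tamoxifen against vehicle (horizontal axis) for the 8 tested genes in each line, from 1 DESeq2 model of all 18 libraries. Points are estimates and bars 95% intervals of single genes, not adjusted for the number of genes. The bars of the repressive line (red) lie to the right of those of both other lines for AC019349.5, RP11-706C16.8, SERPINB11, CTC-518B2.12 and FGFBP1. That response was known when the genes were chosen, so nothing is read from the gap between the bars.

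The tamoxifen effects in the neutral and the activating line were not used to choose the members, apart from RP11-706C16.8 in the activating line, and were tested. In the neutral line none of the 8 genes passed a DESeq2 adjusted p under 0.05, as 0.774% of all tested genes did, and edgeR gave none either. At an unadjusted p under 0.05 there were 4, where 451 of all 5816 genes had one, namely RP11-706C16.8 (log2 fold change -0.69, SE 0.25, DESeq2 adjusted p 0.0859), AC019349.5 (-0.39, SE 0.20, adjusted p 0.326), AC129492.6 (0.98, SE 0.50) and FGFBP1 (0.87, SE 0.44). The last pair had no adjusted p, since independent filtering set aside genes of low count, and without that filtering their DESeq2 adjusted p was 0.635 and 0.640. Higher tamoxifen values with no overlap were found for SERPINB11, RP11-770G2.5, AC129492.6 and FGFBP1, and lower ones for RP11-706C16.8, where 6.62% and 6.65% of all genes had such gaps. SERPINB11 had a log2 fold change of 0.44 (95% interval -0.04 to 0.92) and RP11-770G2.5 of 0.27 (-0.13 to 0.67), so changes of the size seen in the repressive line lie outside both intervals.

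In the activating line none of the 7 members tested passed in DESeq2 or in edgeR, beside 2.8% of all genes, and 4 had an unadjusted p under 0.05, as did 605 of all 5816 genes. Among members with an adjusted p, RP11-770G2.5 came nearest (log2 fold change 0.52, SE 0.20, DESeq2 adjusted p 0.0805). AC019349.5 followed with -0.41 (SE 0.18, adjusted p 0.144) and lower values without overlap, as in 8.18% of all genes. CTB-147C22.8 had a log2 fold change of 0.98 (SE 0.33), with all 3 tamoxifen libraries above the vehicle libraries, as in 7.84% of all genes. It had no adjusted p. Without independent filtering its DESeq2 adjusted p was 0.110, below that of RP11-770G2.5 in the same setting, 0.202. With total-count scaling the adjusted p of CTB-147C22.8 was 0.0405 and with no minimum count 0.0391. Without replicate 2 of the activating line with tamoxifen the DESeq2 adjusted p of CTB-147C22.8 was 0.0441, and without replicate 3 of its vehicle group that of RP11-770G2.5 was 0.0256. FGFBP1 had 0.86 (SE 0.42) and an adjusted p of 0.437 without independent filtering. SERPINB11 (-0.17, 95% interval -0.64 to 0.31) and CTC-518B2.12 (-0.29, -1.18 to 0.60) had intervals that include 0.

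Each construct had 1 line, so an effect of the VP64 domain and a difference between lines cannot be told apart. With this limit, the activating and the neutral line were set against each other. The difference of their tamoxifen effects passed for none of the 7 members tested in DESeq2 or in edgeR, beside 0.619% of all genes, and 1 had an unadjusted p under 0.05, as did 431 of all 5816 genes. The largest was that of CTB-147C22.8, 1.18 in log2 (SE 0.50, DESeq2 adjusted p 0.505 without independent filtering), with all 3 activating tamoxifen libraries above their vehicle group. For RP11-706C16.8, given without a test, the difference was -0.62 (SE 0.35).

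With vehicle alone the lines already differed in some members. AC019349.5 was higher in the activating than in the neutral line by 0.64 in log2 (SE 0.18, DESeq2 adjusted p 0.0125). It was the only member called, beside 0.808% of all genes. It was also the only 1 of the 8 members with an adjusted p here, since independent filtering kept 517 of 5816 genes. The lowest activating library, at 111 normalized counts, was below the highest neutral library, at 114, and the call was lost with edgeR (adjusted p 0.180). It was also lost without independent filtering (0.126), without replicate 1 of the neutral line with vehicle (0.161) and without replicate 3 of the activating line with vehicle (0.726). In the repressive line with vehicle, described without a test, AC019349.5 was higher than in the neutral line by 1.23 (SE 0.18), with no overlap, as in 8.01% of all genes. RP11-706C16.8 was lower by a log2 difference of -0.99 (SE 0.25), RP11-770G2.5 of -0.60 (SE 0.21) and AC129492.6 of -0.90 (SE 0.56), all without overlap as in 8.36% of all genes, and LY6D differed by -1.37 (SE 0.49). CTC-518B2.12 differed by -1.73 (SE 0.54) with overlapping groups, and the values for SERPINB11 and FGFBP1 were 0.16 (SE 0.25) and 0.38 (SE 0.45). The repressive line with vehicle was thus above the neutral line for the KRT13 locus and below it for the LY6D and OVOL1 loci.

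Ordered by group mean, the repressive line with tamoxifen was highest for AC019349.5, RP11-706C16.8, SERPINB11, CTC-518B2.12 and FGFBP1. For AC019349.5, RP11-706C16.8, SERPINB11 and FGFBP1 its libraries lay above all 15 others. For CTC-518B2.12 its lowest library, at 28.29, was just above the highest of the next group, at 28.25, and below the highest of the neutral line with vehicle, at 28.57. The lower groups of SERPINB11, from the neutral line with vehicle to the neutral line with tamoxifen, each overlapped the next. For AC019349.5 the repressive line with vehicle was next highest and overlapped neither neighbour. For RP11-770G2.5 the highest group was the activating line with tamoxifen, which overlapped the repressive line with tamoxifen. Per kilobase of exon, normalized counts in the repressive line with tamoxifen were 2486 for AC019349.5, 398 for RP11-706C16.8, 153 for RP11-770G2.5, 145 for SERPINB11, 137 for CTC-518B2.12, 67.9 for FGFBP1, 28.4 for CTB-147C22.8 and 3.79 for AC129492.6. These levels are over the whole exonic length, of which the overlapped part is 16.78% for SERPINB11 and 100% for AC019349.5.

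Correlations between the members changed once group means were removed. Over the 18 libraries Pearson's r of log2(normalized count + 1) between members lay between -0.63, for AC019349.5 and AC129492.6, and 0.86, for SERPINB11 and FGFBP1. After each group's mean was removed, r lay between -0.59 and 0.70, and AC019349.5 and SERPINB11 had -0.59 in place of 0.86. The libraries share 3 lines and 2 treatments, and these values are a description. The genes most like the mean z-score of the 8 members, among 1458 with a mean of at least 50 normalized counts, were AP001615.9 (r = 0.90), OGFR (0.87), HOOK2 (0.87), DENND1C (0.87) and CTD-2636A23.2 (0.86). AP001615.9 lies opposite RIPK4, a kinase of epidermal differentiation, HOOK2 opposite JUNB, an AP-1 transcription factor subunit, and CTD-2636A23.2 opposite HMGCS1, an enzyme of cholesterol synthesis. By Spearman's rho only DENND1C stayed among the nearest 5.

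Other differentiation genes were taken from a list of 83, which leaves out the members and the genes opposite them, and 23 of these reached the minimum count. In the repressive line 4 rose and 2 fell at a DESeq2 adjusted p under 0.05, where 5.62% of all genes tested rose and 4.02% fell. Their median log2 fold change was 0.08, against -0.02 over all genes tested. CDSN, a glue protein of cornified cell junctions, rose from 84.5, 61.1 and 77.2 to 166, 198 and 176 normalized counts (log2 fold change 1.28, SE 0.22, adjusted p 1.9e-07). KRT17, a keratin of stressed and hyperproliferative epithelium, rose from 658, 747 and 567 to 1164, 927 and 921 (0.61, SE 0.12, adjusted p 2.0e-05). ELF3, an epithelial transcription factor, went from 25.6, 27.8 and 45.9 to 74.7, 60.4 and 58.7 (0.96, SE 0.31, DESeq2 adjusted p 0.0207). TGM1, the transglutaminase that crosslinks the cornified envelope, went from 4.75, 13.5 and 3.67 to 29.1, 37.1 and 24.1 (2.04, SE 0.71, adjusted p 0.0374). Every tamoxifen library was above every vehicle library for these 4 genes.

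KRT6A, a keratin induced in wounded and hyperproliferative epithelium, fell, from 71.2, 75.5 and 58.8 to 28.1, 37.1 and 27.2 normalized counts (-1.16, SE 0.26, DESeq2 adjusted p 0.00017). PKP1, a desmosomal plaque protein, fell from 82.6, 143 and 132 to 95.1, 65.0 and 83.8 (-0.55, SE 0.20, adjusted p 0.0457), with overlapping groups. The calls of CDSN, KRT17 and KRT6A held in all 18 fits that left out 1 library. That of TGM1 was lost without repressive vehicle replicate 1 (DESeq2 adjusted p 0.149) or 3 (0.169), with total-count scaling (0.0624) and with edgeR (0.0587), and 4 fits that left out a library gave it no adjusted p. That of ELF3 was lost without repressive vehicle replicate 1 (0.128) or 2 (0.119) or tamoxifen replicate 1 (0.114) and with total-count scaling (0.0583). That of PKP1 was lost with edgeR (0.0587), without independent filtering (0.0561), with only the groups compared (0.173) and in 11 of the 18 fits, with adjusted p up to 0.299 without repressive vehicle replicate 2. The libraries of those fits were neutral vehicle replicates 1 and 3, neutral tamoxifen replicate 1, repressive vehicle replicates 2 and 3, repressive tamoxifen replicates 2 and 3, activating vehicle replicates 1, 2 and 3 and activating tamoxifen replicate 2. In the neutral line none of the 23 passed in DESeq2, with 2 at an unadjusted p under 0.05, and none passed in edgeR. Only 5 of the 23 had a DESeq2 adjusted p there, and 0.774% of all genes passed. In the activating line KRT17 fell, from 725, 657 and 748 to 524, 456 and 520 (-0.51, SE 0.12, adjusted p 0.0014), and no other gene of the list passed. In that line 10 of the 23 had a DESeq2 adjusted p, and 2.8% of all genes passed.

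Genes overlapping the exons of those differentiation genes on the other strand, apart from the members, were also looked up in the annotation, which gave 16, of which 5 reached the minimum count. None of the 5 passed in any line in DESeq2 or in edgeR, with 0, 1 and 0 at an unadjusted p under 0.05 in the repressive, neutral and activating line. In DESeq2 only 3, 2 and 2 of the 5 had an adjusted p in these lines. Over all genes tested, 5.62% rose and 4.02% fell in the repressive line, and 0.774% and 2.8% passed in the neutral and activating line. With so few genes, nothing is read from these numbers. The most abundant was RP11-116G8.5, whose 595 exonic bases all lie opposite CALML3, a calmodulin-like protein of squamous cells. Its normalized counts in the repressive line were 799 ± 187 with vehicle and 808 ± 48.7 with tamoxifen (SD, n = 3), a log2 fold change of 0.02 (SE 0.12). The other 4, among them PSORS1C1 opposite CDSN, had group means of 2.77 to 7.10 normalized counts in that line.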

How the data were processed

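Total RNA from 18 RWPE1 cultures was made into Illumina Stranded mRNA libraries and sequenced by the authors, who ran the nf-core/rnaseq workflow with GRCh37 and Salmon 1.9.0. The deposited values are expected counts, Salmon's estimates of reads per gene, not scaled for depth or length. Annotation release and strand setting are not given in the sources used here. Of the values 1.10% were not whole (tolerance 1e-06), and all were rounded. Total counts were 675609 to 792282 per library.

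The 5816 genes that reached 10 counts in 3 or more libraries entered 1 DESeq2 1.42.0 model (R 4.3.3) with a mean per group, all 18 libraries, median-of-ratios size factors, Wald tests, independent filtering and Benjamini-Hochberg adjustment over all genes tested, with 0.05 as threshold. The study used DESeq2 1.28.0. The steps were checked on simulated data. Alternatives were edgeR 4.0.16 quasi-likelihood, TMM and total-count scaling, no count minimum, no independent filtering, only the groups compared, a replicate block and leaving out each library.

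The members, gene lists and tests were chosen with earlier results of these data known. Always named were the 9 members and the genes opposite them, then from the lists up to 5 called genes per line and direction by size, and the 5 genes with the highest Pearson r to the members' mean z-score of log2(normalized count + 1). The list of 83 differentiation genes was written from general knowledge. Exon overlaps were counted in GENCODE mapped to GRCh37, matched by Ensembl identifier, and coding stretches were read from GRCh37. Replicates were compared within groups, and chi-square per degree of freedom lay between 2.84 and 3.79 over 18 pairs, above sampling noise. Labels call them biological replicates, and p-values measure the spread between them. No sequencing batch or date was given. Sequences of the LY6D locus and a search of promoter windows are not reported here.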

Additional observations from a re-analysis of the deposited data

Results flagged for a closer look

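For 2 of the members every tamoxifen library was below its vehicle libraries in the activating line and above them in the repressive line, which is what marked them, and these differences between lines were not tested. AC019349.5 had a log2 fold change of -0.41 in the activating line, where all 3 tamoxifen libraries were below the vehicle libraries, and of 2.60 in the repressive line, where all 3 were above. The first value did not pass (DESeq2 adjusted p 0.144), and that in the neutral line was -0.39. RP11-706C16.8 had -1.31 in the activating line and 2.82 in the repressive line, again with no overlap on either side. It was also lower without overlap in the neutral line (-0.69, SE 0.25), and its activating minus neutral difference was -0.62 (SE 0.35). Taken separately, 8.18% of all genes had such lower values in the activating line and 12.6% such higher ones in the repressive line.

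Among the other differentiation genes, KRT17 and CDSN passed a test of the difference between lines in their tamoxifen effects. Both had already been called within a line, so nothing is read from their number. For KRT17 the effect in the activating line minus that in the neutral line was -0.69 in log2 (SE 0.18, DESeq2 adjusted p 0.00686), beside 0.619% of all genes passing. For CDSN the effect in the repressive line minus that in the neutral line was 1.07 (SE 0.32, DESeq2 adjusted p 0.0157). The share of all genes passing for that difference is not reported here.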

How the results depend on the processing

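With 3 libraries per group and 675609 to 792282 counts each, members of low count had wide intervals, and the adjusted p depended on how many genes independent filtering kept. The number of members called in the activating line was 0, and 1 with total-count scaling or with no count minimum (CTB-147C22.8), and 0 to 1 when libraries were left out. The number called between the activating and the neutral line with vehicle was 1, and 0 with edgeR, without independent filtering and with only the groups compared, and 0 to 1 when libraries were left out. Among genes opposite the differentiation list, 1 was called in the neutral line with only the groups compared, against 0. With total-count scaling, the difference between the activating and neutral tamoxifen effects changed sign for AC019349.5 (0.0027 against -0.02) and for FGFBP1 (0.016 against -0.01). Leaving out libraries moved these from -0.31 to 0.18 and from -0.38 to 0.34, and the difference between both lines with vehicle from -0.13 to 0.23 for RP11-770G2.5 and from -0.20 to 0.57 for CTC-518B2.12. The cause of these changes was not tested. Total-count scaling moved the median log2 fold change of all genes in the repressive line by -0.13. Over all genes, edgeR called 22 in the neutral line (DESeq2 45), 102 in the activating line (163), 17 for the difference of their effects (36) and 4 between them with vehicle (47). Without independent filtering the counts were 26, 22 and 8 for the neutral line, the difference and the vehicle comparison, and with total-count scaling the last was 29.

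Same-numbered vehicle and tamoxifen libraries had correlations of their deviations from -0.30 to 0.14, over 0.1 in 2 of 9 pairs. No strong shared deviation by number was seen, but this check cannot exclude a pairing of the samples. With a replicate block the DESeq2 adjusted p of AC019349.5 between the activating and neutral lines with vehicle was 0.0176, that of PKP1 in the repressive line 0.0680 and that of CTB-147C22.8 in the activating line 0.0800, and no call of a member changed.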

Other observations

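CDSN, the junction gene called in the repressive line, has most of its exonic bases (2394 of 2555) opposite PSORS1C1, which was singled out after its values were seen. PSORS1C1 had 1 to 8 counts in each of the 6 repressive libraries and 101 to 149 counts in each of the 12 others. In the repressive line it had 13 counts summed over the vehicle libraries and 12 over the tamoxifen libraries, while CDSN had 241 and 510. In the neutral and activating lines CDSN had 53 to 110 counts per library. No comparison of the report uses this difference between lines, and its source was not tested.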
